A study of Homo sapiens with 19 samples.

Results

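SNORD14, SNORD43 and SNORD104 are box C/D small nucleolar RNAs, and the nucleotides of ribosomal RNA that they select were followed here in Kasumi-1, an established acute myeloid leukaemia line that carries the AML1-ETO fusion. The sites were chosen by the guide named in the deposited annotation: SNORD14 with a letter from A to E, SNORD43 or SNORD104. This gave 3 of the 120 annotated sites. They are 18S-462 (SNORD14A and SNORD14B), 18S-1703 (SNORD43) and 28S-1327 (SNORD104), numbered by position in the rRNA. All were chosen by name, by a rule that uses no measured value, though earlier results of these data were known when they were chosen. A further entry, 18S-1705, names SNORD43 only with the identifier of a prediction and is not one of the 3.

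A box C/D guide pairs with pre-rRNA and places fibrillarin (FBL), the methyltransferase of the particle, over the nucleotide whose ribose is to be methylated. Guides of these families have been reported to support leukaemia driven by AML1-ETO. SNORD14, also called U14, is further known for a role in the processing of 18S rRNA that does not depend on methylation. In the RefSeq gene table (GRCh38.p14) SNORD14A and SNORD14B lie inside RPS13 and SNORD43 inside RPL3, both ribosomal protein genes, and SNORD104 lies inside the non-coding host gene SNHG25. SNORD14C, SNORD14D and SNORD14E lie inside HSPA8, which encodes a constitutive heat shock protein, and no annotated site names them. All 3 target nucleotides are cytidines by background knowledge.

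RiboMethSeq reads 2'-O-methylation from total RNA broken by alkali: a methyl group protects the neighbouring bond, so few fragments end there. Score C subtracts from 1 the ratio of ends at the site to ends on its flanks, so a value near 1 means that nearly every rRNA molecule carried the methyl group. The 19 libraries fall into 11 groups. In the 7 knockdown (KD) groups, of 2 libraries each, all cells received doxycycline at 100 ng/ml. Control KD and FBL KD were each made without re-expression and again with empty vector. The remaining 3 of these groups put wild-type FBL, FBLTri or FBLQua into FBL KD cells. FBLTri and FBLQua are FBL mutants named by the sample titles; in the deposited table the same libraries are headed Dual and Tri, so values given for either mutant rest on the titles. The other 5 libraries had no treatment according to the labels: a control clone, SNORD127 knockout clones C1 and C34, and clone C1 with empty vector or with SNORD127. Nothing in the labels tells separate cultures from repeat preparations, so each p-value speaks only of the spread between libraries, which may be technical. Fragment ends in rRNA carry no information on FBL or guide RNA levels, and neither the knockdown nor the guides were checked here.

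Depth was low at these sites. Libraries held 5533150 to 18835537 end counts, with at most 9021579 in each of the 4 control KD and FBL KD libraries made without re-expression. The weighted mean of the flanking counts, against which a site is read, had a median over libraries of 316.7 at 18S-462, 155.9 at 18S-1703 and 226.0 at 28S-1327. Counted from the lowest of the 120 sites these are ranks 17, 5 and 8, and the median site had 1198. In the libraries without re-expression the flanking means were between 27.3 and 106.6 at 18S-462, between 10.5 and 94.4 at 18S-1703 and between 29.1 and 191.6 at 28S-1327. The largest half-width of the 95% counting interval of a score was 0.102, 0.176 and 0.187 at the 3 sites in this order, always in those libraries. In the 15 other libraries it was at most 0.056, 0.039 and 0.085. These intervals cover counting error only.

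**Figure D1:**
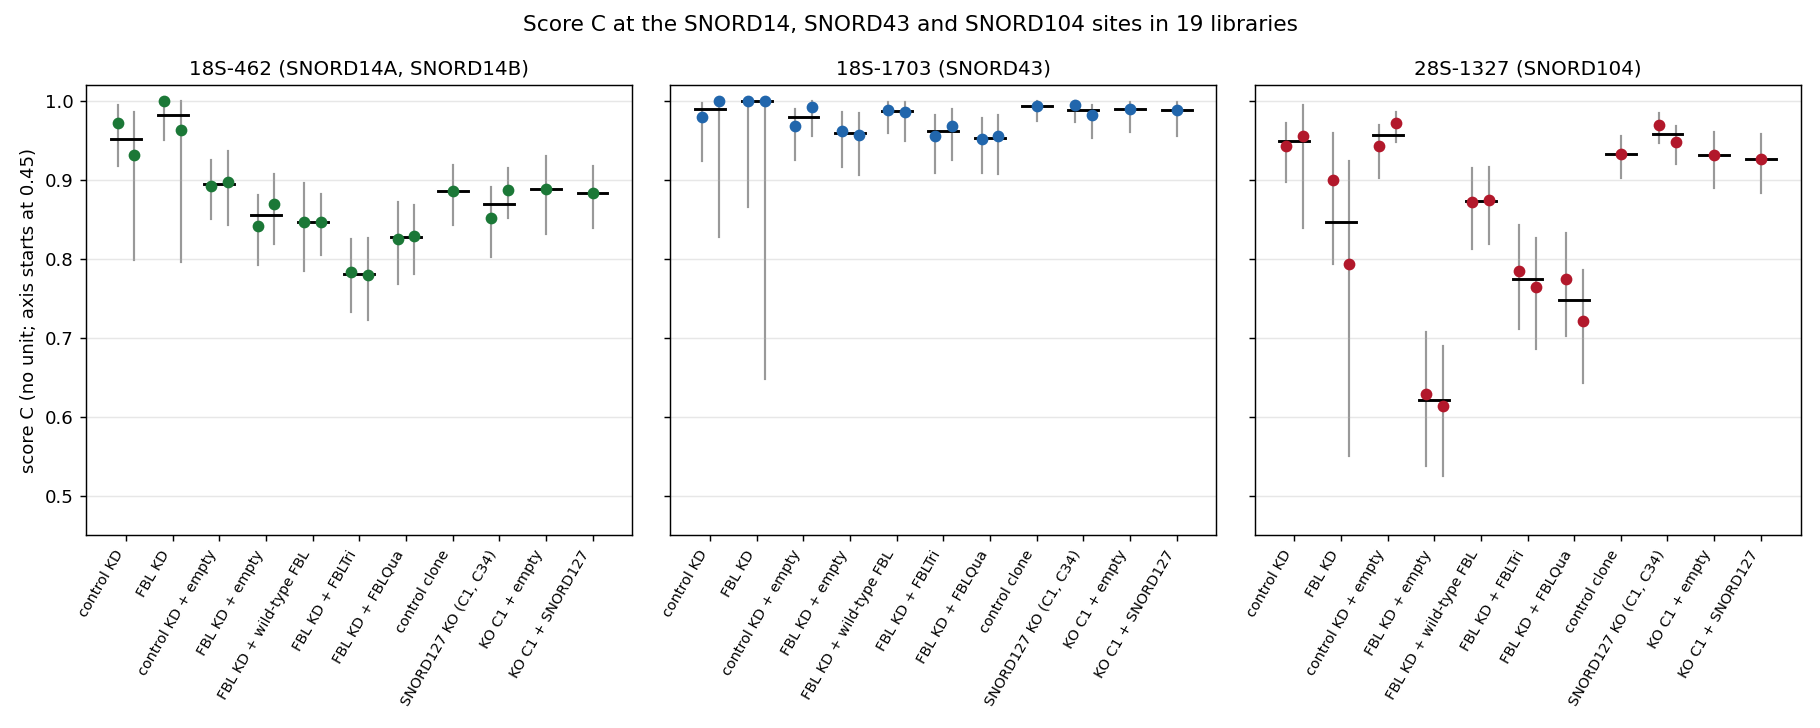
Score C (vertical axis, no unit, starting at 0.45) of each library at the 3 sites, by group; points are libraries, grey bars 95% counting intervals from the end count at the site, and black lines group means. 18S-1703 stays at 0.952 or above in all 19 libraries, while 28S-1327 is lowest in FBL KD with empty vector, at 0.614 and 0.629.

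Without FBL KD the 3 sites were highly but unequally methylated. 18S-1703, which lies near the 3' end of 18S rRNA, scored 0.979 and 1 in control KD, 0.968 and 0.992 in control KD with empty vector, and 0.982 to 0.995 in the 5 SNORD127 libraries. 28S-1327 scored 0.943 and 0.956 in control KD, 0.943 and 0.971 in control KD with empty vector, and 0.927 to 0.970 in the SNORD127 libraries. 18S-462 had the lowest score of the 3 in each of these vector and SNORD127 libraries, with 0.892 and 0.897 in control KD with empty vector and 0.852 to 0.889 in the SNORD127 libraries. In the control clone 18S-1703 ranked 12, 28S-1327 ranked 81 and 18S-462 ranked 91 from the highest of the 120 sites, whose median was 0.967. In control KD without re-expression 18S-462 read higher, at 0.972 and 0.931, from 3 end counts at the site in each library. With the empty vector these counts were 35 and 21, and the difference between the control KD groups was -0.057 (SE 0.016, adjusted p = 0.0599 by limma), not called among sites of which 7.5% were called lower. A test on the end counts themselves, chosen after seeing the data, did call it (adjusted p = 0.0463 by edgeR), and so did the fit without replicate 2 of control KD (-0.0771, adjusted p = 0.0499 by limma).

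FBL KD lowered methylation at the SNORD104 site and not detectably at the SNORD14 and SNORD43 sites when both backgrounds were pooled. At 28S-1327 the 4 control KD libraries had 0.943, 0.956, 0.943 and 0.971, and the FBL KD libraries had 0.900 and 0.793 without re-expression and 0.629 and 0.614 with empty vector. The groups did not overlap. How many of the 120 sites did not overlap was not counted, so this does not set 28S-1327 apart from other sites. The change was -0.219 (SE 0.022, 95% interval -0.270 to -0.168, adjusted p = 1.82e-05 by limma). Over all 120 sites 71.7% were called lower in this comparison and 1.67% higher, with a median change of -0.085. Of the 3 sites 1 was called lower. 28S-1327 ranked 24 from the most negative change.

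The 2 sites in 18S rRNA stayed near their control levels on average. At 18S-462 the control KD libraries averaged 0.923 ± 0.037 and the FBL KD libraries 0.918 ± 0.076 (SD, n = 4 each), a change of -0.0048 (95% interval -0.031 to 0.021, adjusted p = 0.709 by limma). At 18S-1703 it was 0.985 ± 0.014 and 0.980 ± 0.024 (SD, n = 4 each), a change of -0.0050 (95% interval -0.019 to 0.0092, adjusted p = 0.470 by limma). Both intervals lie above the median change of all sites. They ranked 106 and 105 of the 120 sites from the most negative change, and of the 47 sites of 18S rRNA 26 were called lower, with a median change of -0.044. These placements hold on the deposited scale: with library medians made equal, which adds 0.118 to every change here, both sites were called higher, at 0.113 each, while 28S-1327 was called lower by a smaller change of -0.101. That setting takes out any shift shared by most sites, so a call under it is relative to the library median. A site that falls less than the median comes out higher there even without a gain on the deposited scale.

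**Figure D2:**
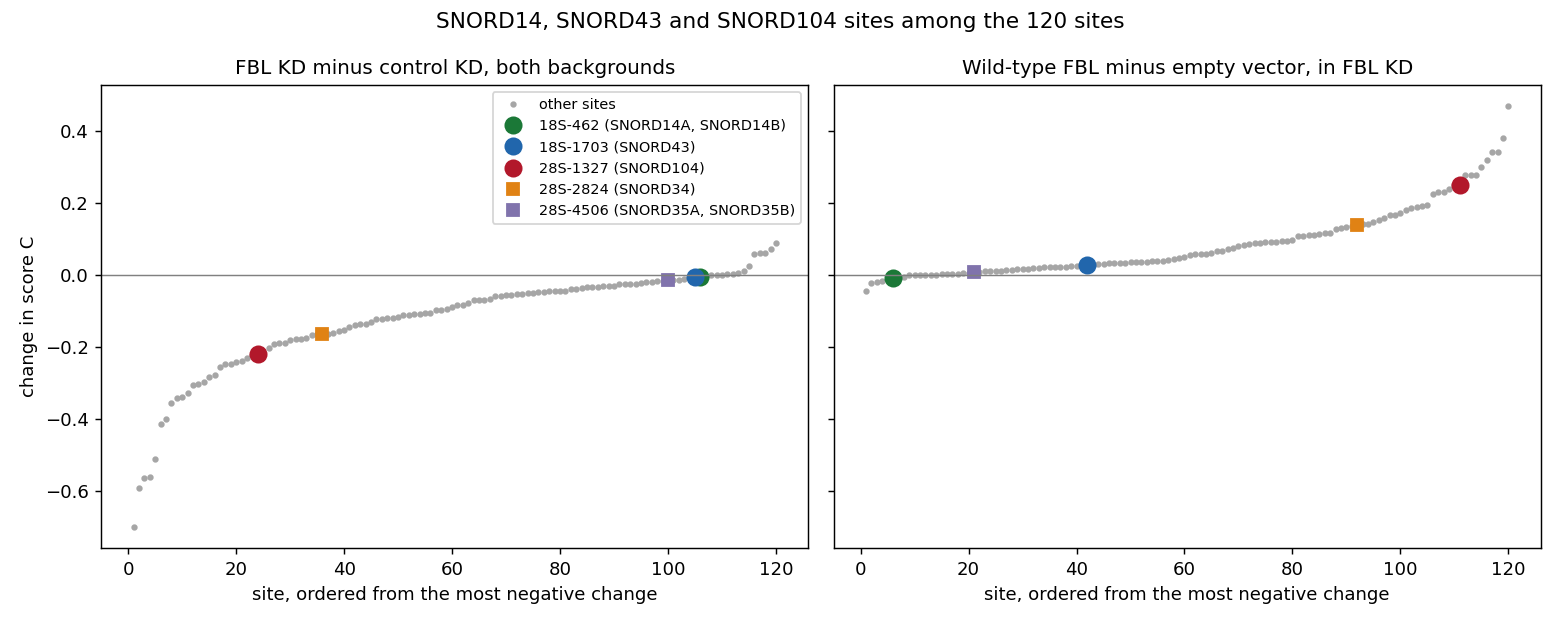
Change in score C (vertical axis) of the 120 sites, ordered from the most negative, for FBL KD against control KD over both backgrounds (left) and wild-type FBL against empty vector in FBL KD (right); large circles are the 3 sites and squares the SNORD34 and SNORD35A sites. 28S-1327 lies at rank 24 on the left, with -0.219, and at rank 111 on the right, with 0.251.

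The averages hide a difference between the backgrounds. Without re-expression the change at 28S-1327 was -0.102 (SE 0.031, adjusted p = 0.0192 by limma; 59.2% of sites called lower), from 7 and 6 end counts in the FBL KD libraries. This call was lost without replicate 2 of FBL KD (-0.049) and without replicate 1 or 2 of control KD (-0.109 and -0.096). It was also lost with library medians made equal, where the change was -0.00367, in the fit on the compared groups only (adjusted p = 0.147 by limma) and on end counts (adjusted p = 0.0503 by edgeR). With empty vector the change was -0.336 (SE 0.031, adjusted p = 1.33e-05 by limma; 67.5% called lower), from 78 and 90 end counts, and was called without any 1 of the 4 libraries and, at -0.198, with library medians made equal. Subtracting the effect without re-expression from the effect with empty vector gave -0.233 (SE 0.045, adjusted p = 0.00537 by limma; 25% of sites called lower), the seventh most negative of the 120. On the end counts this difference was not called (adjusted p = 0.0948 by edgeR). Names in the deposited columns carry shFBL1 and shFBL2 for the FBL KD libraries without re-expression and shFBL4 for those with a vector, and depth differs too, so vector, shFBL number and depth cannot be told apart. The control KD libraries without re-expression are headed shLUC1 and shLUC2. Whether these numbers mark the replicate or the knockdown construct is not given in the labels.

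18S-462 and 18S-1703 also had lower values in FBL KD with empty vector, and whether they were called depended on the settings. 18S-462 had 0.841 and 0.869, against 0.892 and 0.897 in the control, a change of -0.040 (95% interval -0.077 to -0.0033, adjusted p = 0.0520 by limma). 18S-1703 had 0.962 and 0.957, against 0.968 and 0.992, a change of -0.021 (adjusted p = 0.0647 by limma). The latter was called with the replicate block (adjusted p = 0.0453 by limma) and with 2 flanking positions (-0.0295, adjusted p = 0.0490 by limma). The groups did not overlap at either site. The share of all sites without overlap in this comparison was not counted, so this sets neither site apart. The change at 18S-462 was called without replicate 2 of FBL KD (-0.0539), and that at 18S-1703 without replicate 1 of the control (-0.0327). With library medians made equal both sites were called higher relative to the library median, at 0.0977 and 0.117. At 18S-1703 the end counts were 6 and 6 against 5 and 1, and without replicate 2 of the control the change was -0.0086. Without re-expression FBL KD read 1 and 0.963 at 18S-462, from 0 and 1 end counts, and the change was 0.030 (adjusted p = 0.136 by limma). It was called higher without replicate 2 of FBL KD (0.0485) or replicate 1 of control KD (0.0506). A count of 0 there allows a score down to 0.959. At 18S-1703 both FBL KD libraries without re-expression scored 1 from counts of 0, which allow scores down to 0.891 and 0.714, so a loss of the size seen with empty vector was not detectable at this depth. The effect at 18S-462 differed between backgrounds by -0.070 (adjusted p = 0.0461 by limma). That call was lost without replicate 1 of FBL KD (-0.052), either FBL KD library with empty vector (-0.056 and -0.084), replicate 2 of control KD (-0.050) or replicate 1 or 2 of control KD with empty vector (-0.072 and -0.068). With the replicate block it was also lost (adjusted p = 0.0580 by limma), and on end counts (adjusted p = 0.249 by edgeR).

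**Figure D3:**
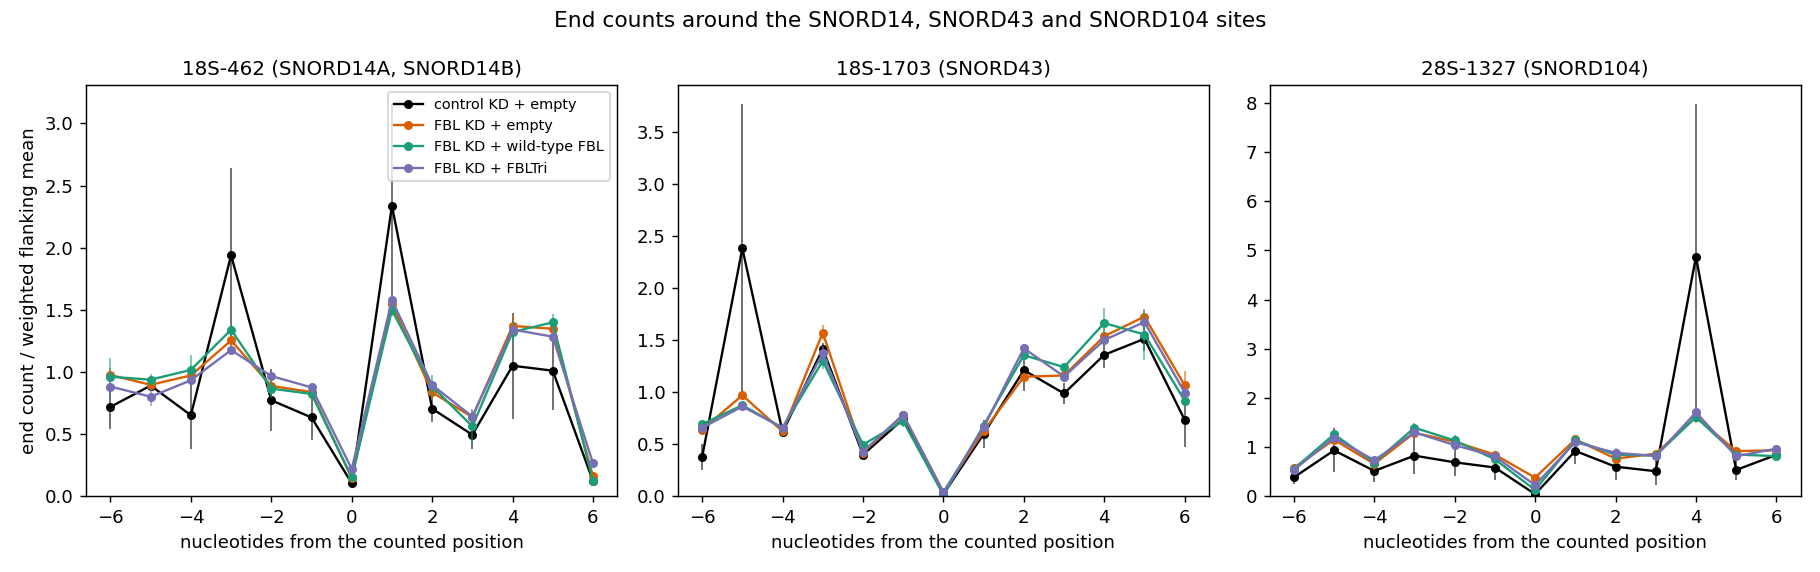
End counts divided by the weighted flanking mean (vertical axis) at each position from the counted one, 0, out to the 6 flanking positions on each side; points are means and bars the range of 2 libraries for 4 groups. The dip at 0 is shallowest for 28S-1327 in FBL KD with empty vector, and the wide bars of control KD with empty vector come from its replicate 2.

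Expressed as the level of ends left at the counted position, which is 1 minus the score before negative values are set to 0, the sites ranged as follows. At 28S-1327 a median of 0.10 of the flanking level remained at the counted position over the 19 libraries, with a range from 0.029 to 0.386. At 18S-462 it was 0.116, from 0 to 0.221, and at 18S-1703 it was 0.014, from 0 to 0.048. Among the control KD libraries with empty vector, replicate 2 had isolated peaks. Its most counted position held 20.8% of all its end counts, against 2.56% to 4.90% in every other library. Peaks also fell in the flanks: in replicate 2, position 1332 of 28S held 2779 ends, 7.97 times the flanking mean. Its 28S-1327 score of 0.971 became 0.934 when only 2 flanking positions on each side were used, against 0.943 and 0.941 for replicate 1. Without this library the change with empty vector was -0.321 at 28S-1327 and -0.038 at 18S-462, so both were nearly as large.

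A listed neighbour enters the flanks of each 18S site. 18S-468, guided by SNORD83A, sits 6 nucleotides from 18S-462 and is itself protected, with scores of 0.899 and 0.837 in control KD with empty vector and 0.839 and 0.899 in FBL KD with empty vector. Its change over both backgrounds was 0.00042 (SE 0.022, adjusted p = 0.994 by limma). With 2 flanking positions, which leave 18S-468 out, 18S-462 was called lower in FBL KD with empty vector (-0.046, adjusted p = 0.0237 by limma). 18S-1705, the predicted SNORD43 position, scored 0 in 16 of the 19 libraries. The exceptions were both control KD libraries without re-expression, at 0.162 and 0.377, and the control clone, at 0.026. With negative values kept, the other 16 ranged from -0.482 to -0.065, meaning more ends at the position than around it. Its called fall without re-expression (-0.269, adjusted p = 0.00183 by limma) therefore rests on 2 libraries with 89 and 15 end counts there, while both control libraries with empty vector were at 0.

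Wild-type FBL, put back into FBL KD cells, raised the SNORD104 site most among the 3 sites. The FBL KD libraries with empty vector used here also enter the fall on knockdown, so the rise and the fall are not independent. At 28S-1327 the wild-type libraries had 0.871 and 0.874, against 0.629 and 0.614 with empty vector. The rise was 0.251 (SE 0.031, adjusted p = 0.000129 by limma), in a comparison where 57.5% of sites were called higher and the median change was 0.053. It was called without any 1 of the 4 libraries, and on end counts (adjusted p = 0.000376 by edgeR). The rise was 0.155 with library medians made equal. In rank it was 111 of 120 from the most negative. Its score remained below the 0.943 and 0.971 of control KD with empty vector. That difference was -0.084 (95% interval -0.156 to -0.012, adjusted p = 0.0788 by limma) and was not called, where 29.2% of sites were called lower. It was called on end counts (adjusted p = 0.00167 by edgeR), where the ends at the site were 27 and 29 with wild-type FBL and 13 and 10 in the control.

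18S-1703 rose from 0.962 and 0.957 with empty vector to 0.989 and 0.986 with wild-type FBL, within the range of the control libraries. The change was 0.028 (SE 0.0088, adjusted p = 0.0236 by limma) and corresponds to 2 end counts in each library against 6. The call was lost without any 1 of the 4 libraries, with changes from 0.026 to 0.031, and on end counts (adjusted p = 0.0588 by edgeR). With library medians made equal it was called lower relative to the library median (-0.0677). 18S-462 gave no such rise. It had 0.847 in both wild-type libraries, inside the 0.841 and 0.869 of the empty vector, and the change was -0.0080 (95% interval -0.045 to 0.029, adjusted p = 0.720 by limma). This was the sixth most negative change of the 120 sites. It was called lower relative to the library median when medians were made equal (-0.104). Against control KD with empty vector 18S-462 was lower by -0.048 (95% interval -0.085 to -0.011, adjusted p = 0.0528 by limma), short of the threshold.

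**Figure D4:**
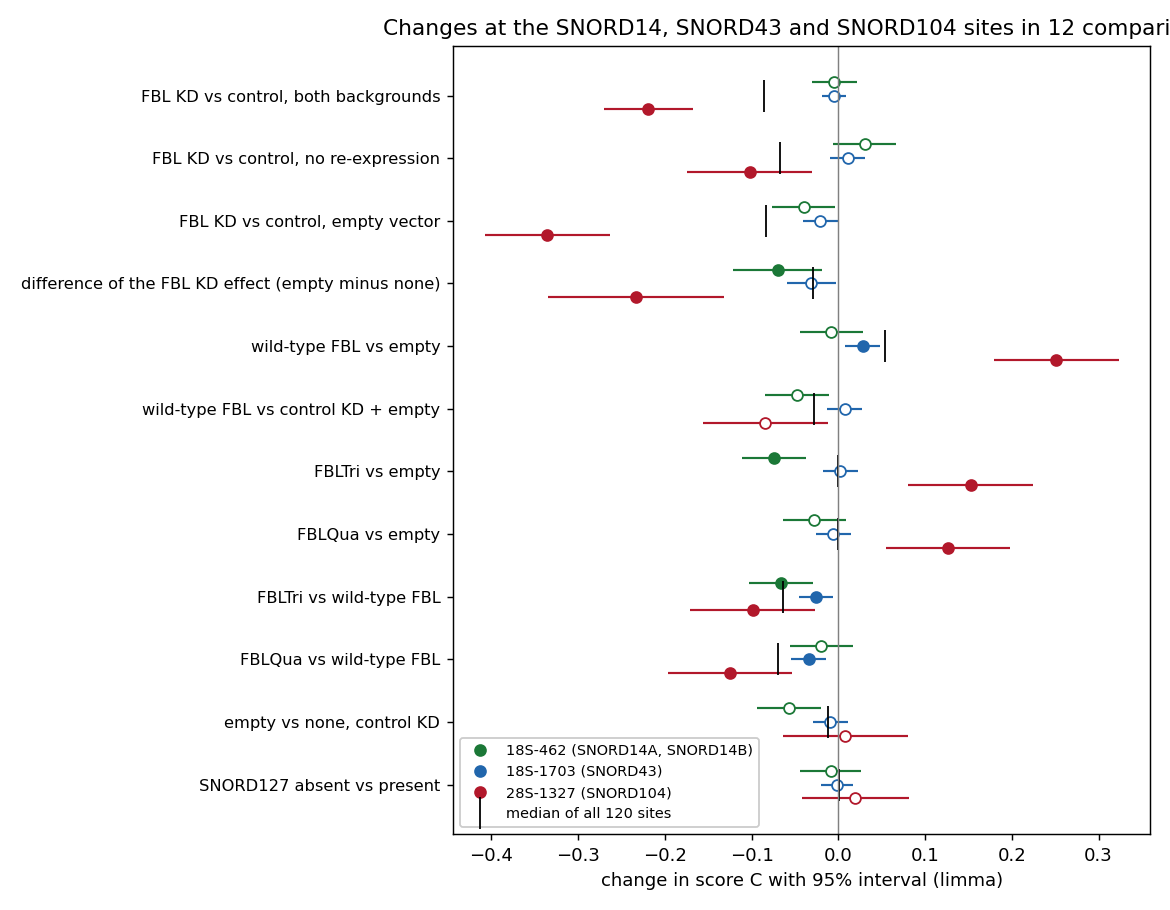
Change in score C (horizontal axis) with 95% intervals by limma in 12 comparisons, by site; filled circles have an adjusted p under 0.05, open circles do not, and black ticks mark the median of the 120 sites. 28S-1327 falls by 0.336 on knockdown with empty vector and rises by 0.251 with wild-type FBL. This fall and this rise share the libraries of FBL KD with empty vector and are not independent. The intervals of 18S-462 and 18S-1703 include 0 or lie near it in most comparisons.

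The mutants separated the sites. At 28S-1327 FBLTri gave 0.784 and 0.764 and FBLQua 0.774 and 0.721, all above the empty vector and all below wild-type FBL. Over empty vector the site rose by 0.153 with FBLTri (SE 0.031, adjusted p = 0.00551 by limma; 16.7% of sites called higher) and by 0.126 with FBLQua (SE 0.031, adjusted p = 0.0256 by limma; 7.5% called higher). These were among the largest rises of the 120 sites, at ranks 117 and 118 from the most negative. Both are read against the same FBL KD libraries with empty vector as the rise with wild-type FBL, so the rises are not independent. Of the 23 listed cytidine sites 4 were called higher and 6 lower with FBLTri, and 1 higher and 2 lower with FBLQua. The FBLTri call held without any 1 of the 4 libraries, at 0.142 to 0.163. The FBLQua call was lost without replicate 1 of FBLQua (0.0999) or either library of the empty vector (0.134 and 0.119 without replicates 1 and 2). On end counts neither was called (adjusted p = 0.0681 and 0.255 by edgeR). Against wild-type FBL the site was lower by -0.099 with FBLTri (adjusted p = 0.0234 by limma; 62.5% called lower) and by -0.125 with FBLQua (adjusted p = 0.00813 by limma; 59.2% called lower). The FBLTri call was lost without any 1 of the libraries compared, at -0.0885 to -0.109, and the FBLQua call without replicate 2 of FBLQua (-0.0985). On end counts both were called (adjusted p = 0.0224 and 0.00784 by edgeR). With library medians made equal neither was (-0.00173 and -0.0235).

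18S-462 read lower than empty vector with both mutants, and only the change with FBLTri was called. FBLTri gave 0.783 and 0.779, the lowest values of this site in any group. It fell by 0.074 against empty vector (SE 0.016, adjusted p = 0.00682 by limma; 20% of sites called lower) and by 0.066 against wild-type FBL (SE 0.016, adjusted p = 0.00623 by limma). The first call was lost without replicate 2 of the empty vector (-0.060), and neither was made on end counts (adjusted p = 0.134 and 0.0820 by edgeR). FBLQua gave 0.825 and 0.829, a change of -0.028 against empty vector (95% interval -0.064 to 0.0090, adjusted p = 0.278 by limma; 11.7% called lower) and of -0.020 against wild-type FBL (adjusted p = 0.323 by limma). Whether the mutants differ from each other was not tested. The neighbour 18S-468 was also low with FBLTri, at 0.773 and 0.791. Its change against empty vector was -0.087 (adjusted p = 0.0602 by limma) and against wild-type FBL -0.109 (adjusted p = 0.0153 by limma).

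18S-1703 stayed at the level of the empty vector with both mutants. FBLTri gave 0.955 and 0.968 and FBLQua 0.952 and 0.955, and the changes against empty vector were 0.0024 (95% interval -0.018 to 0.022) and -0.0060 (95% interval -0.026 to 0.014). Against wild-type FBL the site was lower by -0.026 (adjusted p = 0.0300 by limma) and by -0.034 (adjusted p = 0.00896 by limma). The FBLTri call needed replicate 1 of FBLTri (-0.0195 without it) and both wild-type libraries (-0.0244 and -0.0271 without replicates 1 and 2). It was also lost on end counts (adjusted p = 0.0636 by edgeR) and on the log2 scale (adjusted p = 0.0626 by limma). The FBLQua call held without any 1 of the 4 libraries, at -0.033 to -0.036. The end counts were 7 and 5 with FBLTri and 9 and 7 with FBLQua, against 2 and 2 with wild-type FBL. With library medians made equal the site was called higher than with wild-type FBL for both mutants (0.0712 and 0.0674), as was 18S-462 (0.0308 and 0.0819). These values are relative to the library median. On the deposited scale, against wild-type FBL 3 of the 3 sites were called lower with FBLTri, where 62.5% of all sites were, and 2 of the 3 with FBLQua, where 59.2% were, so both counts lie near the general share.

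Removal of another guide, SNORD127, left the 3 sites where they were within error. The mean of the libraries lacking SNORD127 (clones C1 and C34, and C1 with empty vector) minus that of the control clone and of C1 with SNORD127 was -0.0089 at 18S-462 (95% interval -0.044 to 0.027). It was -0.0017 at 18S-1703 (95% interval -0.020 to 0.016) and 0.019 at 28S-1327 (95% interval -0.042 to 0.081). None was called, and 0.833% of sites were called lower and 0% higher. These libraries are clones, 1 group holds 2 of them and the rest 1, so the spread was borrowed from all 19 libraries.

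Other guides named in the same report of AML1-ETO leukaemia, by background knowledge, are SNORD34 and SNORD35A, both hosted by the ribosomal protein gene RPL13A. 28S-2824, the SNORD34 site, had 0.989 and 0.990 in control KD with empty vector and 0.792 and 0.780 in FBL KD with empty vector. Its change on knockdown, both backgrounds pooled, was -0.162 (SE 0.010, adjusted p = 6.23e-07 by limma), and wild-type FBL raised it by 0.139 (adjusted p = 4.14e-05 by limma). It too rose over empty vector with FBLTri, by 0.084 (adjusted p = 0.00186 by limma), and its change with FBLQua was 0.041 (adjusted p = 0.0776 by limma). 28S-4506, annotated with SNORD35A and SNORD35B, had a pooled change on knockdown of -0.012 (SE 0.0064, adjusted p = 0.122 by limma) and was called lower without re-expression, at -0.028 (adjusted p = 0.0235 by limma). Its score lay between 0.953 and 1 in all 19 libraries.

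By likeness of score over the 19 libraries, each site had different company. The measure was the root mean square difference, in units of score. 18S-462 was closest to its neighbour 18S-468 (0.039) and to 28S-4362, guided by SNORD1 genes (0.043), against a median of 0.105 over the other 119 sites. 18S-1703 was closest to 28S-1612 (SNORD80, 0.013) and 18S-576 (SNORD93, 0.013), against a median of 0.101. 28S-1327 was closest to 28S-1747 (SNORD73A, 0.045) and 28S-3697 (SNORD37, 0.045), against a median of 0.132. As these sites were chosen for likeness over the same libraries, their changes are given as a description: on knockdown over both backgrounds -0.246 at 28S-1747 and -0.203 at 28S-3697, and with wild-type FBL over empty vector 0.250 and 0.232. With FBLTri over empty vector the changes were 0.040 at 28S-1747 and 0.093 at 28S-3697, beside the 0.153 of 28S-1327.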

How the data were processed

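Per the labels' protocols, 100 ng of total RNA was broken by alkali (12 min, 95 °C) and cloned as small RNA libraries. Per the submitters' processing notes cutadapt and Bowtie2 were used; the rRNA reference, like both versions, is not given in the sources used here. Deposited were the authors' end counts for 7000 rRNA positions, as raw counts, and score C as a fraction for 120 sites. The formula, with the end read 1 position after the site and 6 weighted flanking positions on each side (weights 1 to 0.5), gave the deposited score in 2280 of 2280 values within 1e-09; negative scores are set to 0. Site numbers follow the files and no genome coordinates apply.

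Changes were tested with limma 3.58.1 (R 4.3.3) on all 120 sites, with group means as coefficients and a variance trend, by two-sided tests with Benjamini-Hochberg adjustment at 0.05. Knockdown comparisons used the 14 knockdown libraries and the SNORD127 comparison all 19. The fit was also run on simulated scores with independent normal errors and no shared library shift or depth difference. That run cannot show how such features affect the calls. edgeR 4.0.16 was run on the end count of each site with the log flanking mean as offset, added after seeing the data. Log2 values are minus the log2 of the ratio of end count to flanking mean. Counting intervals are exact two-sided Poisson at 95% with the flanking mean held fixed. The score that a count of 0 allows was read from a separate upper limit of 3 ends, so it lies above the lower end of that interval. Replicate pairs differed by far more than sampling noise (chi-square 17.9 to 699.8 per position). Groups came from sample titles. The sites and lists were chosen with earlier results of these data known. Named sites are the 3 chosen by guide, listed sites within 6 nucleotides of them, the SNORD34 and SNORD35A sites, and for each the 2 sites of most similar score. Cytidine sites came from background knowledge.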

Additional observations from a re-analysis of the deposited data

Results flagged for a closer look

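At 28S-1327, the SNORD104 site, the effect of FBL KD with empty vector minus that without re-expression was -0.233 (adjusted p = 0.00537 by limma). It was listed because the difference between the backgrounds passed the test. At 18S-462, the SNORD14 site, the same difference was -0.070 (adjusted p = 0.0461 by limma). This call was lost with the replicate block (adjusted p = 0.0580 by limma), on end counts (adjusted p = 0.249 by edgeR) and without any 1 of 6 of the 8 libraries. At 28S-1327 it was lost on end counts (adjusted p = 0.0948 by edgeR). Depth differed between the backgrounds: flanking means at 18S-462 were 27.3 to 106.6 without re-expression and 204.0 to 339.4 with empty vector, and the part of depth in the difference was not tested.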

How the results depend on the processing

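Changes were recomputed under 9 alternatives and without each library; the SNORD127 comparison has no replicate block. Dropping the variance trend, or keeping negative scores, altered no call. Making library medians equal adds the same constant to every change of a comparison, so the values it gives are relative to the library median. That constant can be larger in size than the median change of the sites. It was 0.0987 against -0.068 for FBL KD without re-expression, and 0.0969 against -0.064 for FBLTri against wild-type FBL. With library medians made equal, FBL KD against control KD gave 0.113 at 18S-462 and 0.113 at 18S-1703 over both backgrounds, 0.129, 0.109 and -0.00367 (18S-462, 18S-1703, 28S-1327) without re-expression, and 0.0977 and 0.117 at the 18S sites with empty vector. The difference between backgrounds at 18S-462 was then -0.0313. Wild-type FBL gave -0.104 at 18S-462 and -0.0677 at 18S-1703 against empty vector, and 0.0492 at 18S-1703 against control KD. Against wild-type FBL, FBLTri gave 0.0308, 0.0712 and -0.00173 and FBLQua 0.0819, 0.0674 and -0.0235 at 18S-462, 18S-1703 and 28S-1327.

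Fitting only the compared groups lost 28S-1327 without re-expression (-0.102), the background difference at 18S-462 (-0.0701) and FBLQua over empty vector at 28S-1327 (0.126), and called wild-type FBL against control KD at 28S-1327 (-0.0844). Flanks of 2 positions called FBL KD with empty vector at 18S-462 (-0.0463) and 18S-1703 (-0.0295) and wild-type FBL against control KD at 18S-462 (-0.0558). Leaving out the sites of lowest flanking counts gave no value for 18S-1703 or 28S-1327 and called the same contrasts at 18S-462 (-0.0399 and -0.0479).

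On the log2 scale these calls were lost: the background difference at 18S-462 (-1.86) and 28S-1327 (-1.75), wild-type FBL over empty vector at 18S-1703 (1.49), FBLTri over empty vector at 18S-462 (-0.59) and 28S-1327 (0.74), FBLQua over empty vector at 28S-1327 (0.59), FBLTri against wild-type FBL at 18S-462 (-0.51), 18S-1703 (-1.39) and 28S-1327 (-0.82), and FBLQua against wild-type FBL at 28S-1327 (-0.97). Wild-type FBL against control KD was called at 28S-1327 (-1.62). With edgeR the losses were FBL KD without re-expression at 28S-1327 (-1.28), the background difference at 18S-462 (-2.43) and 28S-1327 (-1.92), wild-type FBL over empty vector at 18S-1703 (1.63), FBLTri over empty vector at 18S-462 (-0.59) and 28S-1327 (0.74), FBLQua over empty vector at 28S-1327 (0.58), and FBLTri against wild-type FBL at 18S-462 (-0.52) and 18S-1703 (-1.55). It called wild-type FBL against control KD at 28S-1327 (-1.63) and empty vector against none in control KD at 18S-462 (-1.37). The cause was not tested. Counts over all sites moved too: with medians equal FBL KD over both backgrounds called 39 lower and 57 higher (86 and 2 otherwise), FBLTri against wild-type FBL 24 and 42 (75 and 0) and wild-type FBL over empty vector 50 and 20 (1 and 69), while FBLTri over empty vector called 0 and 0 on the log2 scale and 12 and 5 with edgeR (24 and 20).

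Over 21 pairs of groups the correlation of the deviations of same-numbered libraries ran from -0.226 to 0.694 (FBLQua with wild-type FBL), with 12 of 21 above 0.1. Since not every pair was above 0.1 and no label ties the numbers, they were not taken to pair the libraries. With the replicate block 18S-1703 was called in FBL KD with empty vector (-0.0207) and the background difference at 18S-462 was not (-0.0701); no other call changed.

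Leaving out each library in turn gave ranges of 0.0098 to 0.0506 (18S-462) and -0.156 to -0.0492 (28S-1327) for FBL KD without re-expression, and -0.0539 to -0.0259 (18S-462) and -0.0327 to -0.0086 (18S-1703) with empty vector. The background difference ranged from -0.0905 to -0.0497 at 18S-462 and from -0.0433 to -0.0192 at 18S-1703. Over empty vector, wild-type FBL ranged from 0.0257 to 0.0306 at 18S-1703, FBLTri from -0.0881 to -0.0601 at 18S-462 and FBLQua from 0.0999 to 0.153 at 28S-1327. Against wild-type FBL, FBLTri ranged from -0.0321 to -0.0195 at 18S-1703 and from -0.109 to -0.0885 at 28S-1327, and FBLQua from -0.151 to -0.0985 at 28S-1327. Empty vector against none in control KD ranged from -0.0771 to -0.0363 at 18S-462. Depth limits each site: 18S-1703 had 0 to 9 end counts per library, and the widest counting interval was at 28S-1327.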
